A study of Homo sapiens with 10 samples.

Results

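Glycolysis and the response to low oxygen share many genes. Glycolysis splits glucose into pyruvate through a chain of enzymes, and lactate dehydrogenase turns pyruvate into lactate. When oxygen is low, prolyl hydroxylases stop marking the HIF alpha subunits for destruction, and HIF then raises transcription of most of these enzymes, of glucose transporters, and of genes for blood vessel growth, pH control, collagen maturation and mitophagy. Lung cancer cells often run glycolysis at a high rate even with oxygen present. The 39 genes described here were given as a named list of glycolysis and hypoxia-induced genes, by a rule that uses no measured value, though the list was proposed with earlier results of these data known, and all 39 were found by their current symbol among the 57736 Ensembl gene IDs of the count table. All 39 passed the filter on low counts, which kept 17978 genes.

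The count table covers 10 RNA libraries of 3 cultured human lung cancer lines. The p53 siRNA groups were NCI-H2087 with p53 V157F, NCI-H441 with R158L and NCI-H2110 with R158P, and each line also had a group that received a control siRNA. Each siRNA was represented by 2 libraries in NCI-H2087, by 2 in NCI-H441 and by 1 in NCI-H2110 (numbered replicate 2), so the last line has no replicate check. Sample titles call the treated cells knockouts, while the extraction protocol speaks of siRNA transfection, and a knockdown is what is described here. Every group, controls included, carries a p53 mutation and was transfected, and no mutation is present in more than 1 line, so a mutation and its line cannot be told apart. The dose and duration of transfection and the oxygen level of the cultures are not given in the sources used here, and nothing says whether replicates were separate cultures, so the p-values reflect the spread among these libraries alone, which may be technical.

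Library totals ran from 18336672 to 25810934 counts. All 4 epithelial markers (EPCAM, KRT8, KRT18, CDH1) were expressed in every library, while the leukocyte markers PTPRC and CD3E, the endothelial marker VWF and the fibroblast markers COL3A1 and DCN were below 1 CPM in all 10. Of the other markers in those lists CD68 had 14.8 to 363.0 CPM, COL1A1 12.1 to 48.7 CPM and CDH5 up to 1.36 CPM. The endothelial marker PECAM1 was not found by its symbol. The lung lineage regulator NKX2-1 was expressed in every library, at 27.0 CPM or more (CPM, counts scaled to library size with TMM factors). The alveolar protease gene NAPSA was below 1 CPM in both NCI-H2110 libraries. In that line the third lung lineage marker, SFTPB, had 0.65 CPM with p53 siRNA and 1.02 CPM with control siRNA. In bulk RNA, fewer cells of a type and less RNA per cell cannot be told apart.

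Promoters of members that moved and of members that did not are printed first, because HIF binds a short core that begins with A (ACGTG) or, less often, with G (GCGTG). Capitals mark both cores and, for matches on the other strand, the reverse complement of the first (CACGT) and of the second (CACGC). Overlapping matches run together, so that the palindrome CACGTG, which MYC and BHLHE40 can also bind, counts on both strands. Each sequence is a 300 base RefSeq promoter of the GRCh38.p14 build, read 5′ to 3′ on the gene's strand, with 250 bases before the start and 50 after it. BHLHE40 (chr3:4979187-4979486, plus strand), ERO1A (chr14:52695509-52695808, minus), GAPDH (chr12:6535014-6535313, plus) and PKM (chr15:72231141-72231440, minus) were called higher in NCI-H2087 with p53 siRNA. ANKRD37 (chr4:185396591-185396890, plus) and EGLN3 (chr14:33951025-33951324, minus), both induced by HIF in many cells, were not called there.
BHLHE40: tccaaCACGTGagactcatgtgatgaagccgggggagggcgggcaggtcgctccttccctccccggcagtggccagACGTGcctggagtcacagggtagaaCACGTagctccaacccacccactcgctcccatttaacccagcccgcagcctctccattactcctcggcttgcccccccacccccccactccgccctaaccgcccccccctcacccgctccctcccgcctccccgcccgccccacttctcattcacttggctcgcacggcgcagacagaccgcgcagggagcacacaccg
ERO1A: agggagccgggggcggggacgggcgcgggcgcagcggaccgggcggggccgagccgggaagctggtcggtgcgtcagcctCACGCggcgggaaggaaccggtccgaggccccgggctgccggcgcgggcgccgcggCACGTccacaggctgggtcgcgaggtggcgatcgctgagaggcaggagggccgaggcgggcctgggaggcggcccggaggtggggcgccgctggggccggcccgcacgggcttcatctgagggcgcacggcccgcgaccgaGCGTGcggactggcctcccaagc
GAPDH: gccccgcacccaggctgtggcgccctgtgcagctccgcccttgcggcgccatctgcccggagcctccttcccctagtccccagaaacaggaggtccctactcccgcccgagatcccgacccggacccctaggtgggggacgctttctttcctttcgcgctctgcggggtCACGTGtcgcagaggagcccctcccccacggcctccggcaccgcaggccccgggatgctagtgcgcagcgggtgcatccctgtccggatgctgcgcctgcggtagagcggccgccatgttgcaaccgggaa
PKM: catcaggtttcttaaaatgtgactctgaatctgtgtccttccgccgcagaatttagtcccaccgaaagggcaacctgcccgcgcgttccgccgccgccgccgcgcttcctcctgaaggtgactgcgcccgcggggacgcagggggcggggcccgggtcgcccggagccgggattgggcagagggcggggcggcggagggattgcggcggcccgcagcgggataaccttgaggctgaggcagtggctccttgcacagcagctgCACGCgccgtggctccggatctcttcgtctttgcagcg
ANKRD37: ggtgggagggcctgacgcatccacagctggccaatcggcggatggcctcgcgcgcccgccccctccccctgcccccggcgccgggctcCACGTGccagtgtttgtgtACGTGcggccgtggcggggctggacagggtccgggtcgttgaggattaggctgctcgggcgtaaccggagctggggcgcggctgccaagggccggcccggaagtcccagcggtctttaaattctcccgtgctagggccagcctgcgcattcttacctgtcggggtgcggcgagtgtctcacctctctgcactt
EGLN3: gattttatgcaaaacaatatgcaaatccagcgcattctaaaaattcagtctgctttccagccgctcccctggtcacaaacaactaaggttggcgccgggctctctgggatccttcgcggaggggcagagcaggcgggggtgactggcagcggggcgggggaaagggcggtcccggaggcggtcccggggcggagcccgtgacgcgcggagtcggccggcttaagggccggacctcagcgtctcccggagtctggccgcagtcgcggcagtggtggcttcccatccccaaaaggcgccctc

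These windows held 4 matches in BHLHE40, 3 in ERO1A, 2 in GAPDH, both in 1 palindrome, 1 in PKM, 3 in ANKRD37 and 0 in EGLN3. The promoter table had entries for 34 of the 39 members, and 31 of those 34 had a match in at least 1 promoter. Of the 61 promoters of members, 70.5% held a match, against 48.4% of all 35116 promoters of the same length, and 14.8% held the palindrome CACGTG, against 7.26% of all. The match did not separate the members by their change in NCI-H2087: 7 of the 7 called members with an entry held one, and so did 24 of the 27 that were not called. The matches are letters in a window and are not measured binding sites.

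In NCI-H2087 cells, 9 of the 39 genes were higher with p53 siRNA and 0 were lower (edgeR quasi-likelihood test, adjusted p below 0.05 by Benjamini-Hochberg over 17978 genes). That is 23.1% of the members, whereas 4.98% of all genes tested were called higher and 3.69% lower. The 9 were the transcriptional repressor BHLHE40, the stress-induced NDRG1, the oxidative folding enzyme ERO1A, the angiogenic factor VEGFA, and the glycolytic enzymes HK1, GPI, PFKP, GAPDH and PKM. The median log2 fold change of the 39 was 0.49, against -0.03 for all genes tested. Of the 39, 31 were positive, against 8157 of all 17978 genes. Among the 31 was CA9, with at most 4 counts in any NCI-H2087 library. With the replicate number as a block, 19 members were higher and 0 lower, or 48.7% of them, against 12.8% higher among all genes.

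**Figure D1:**
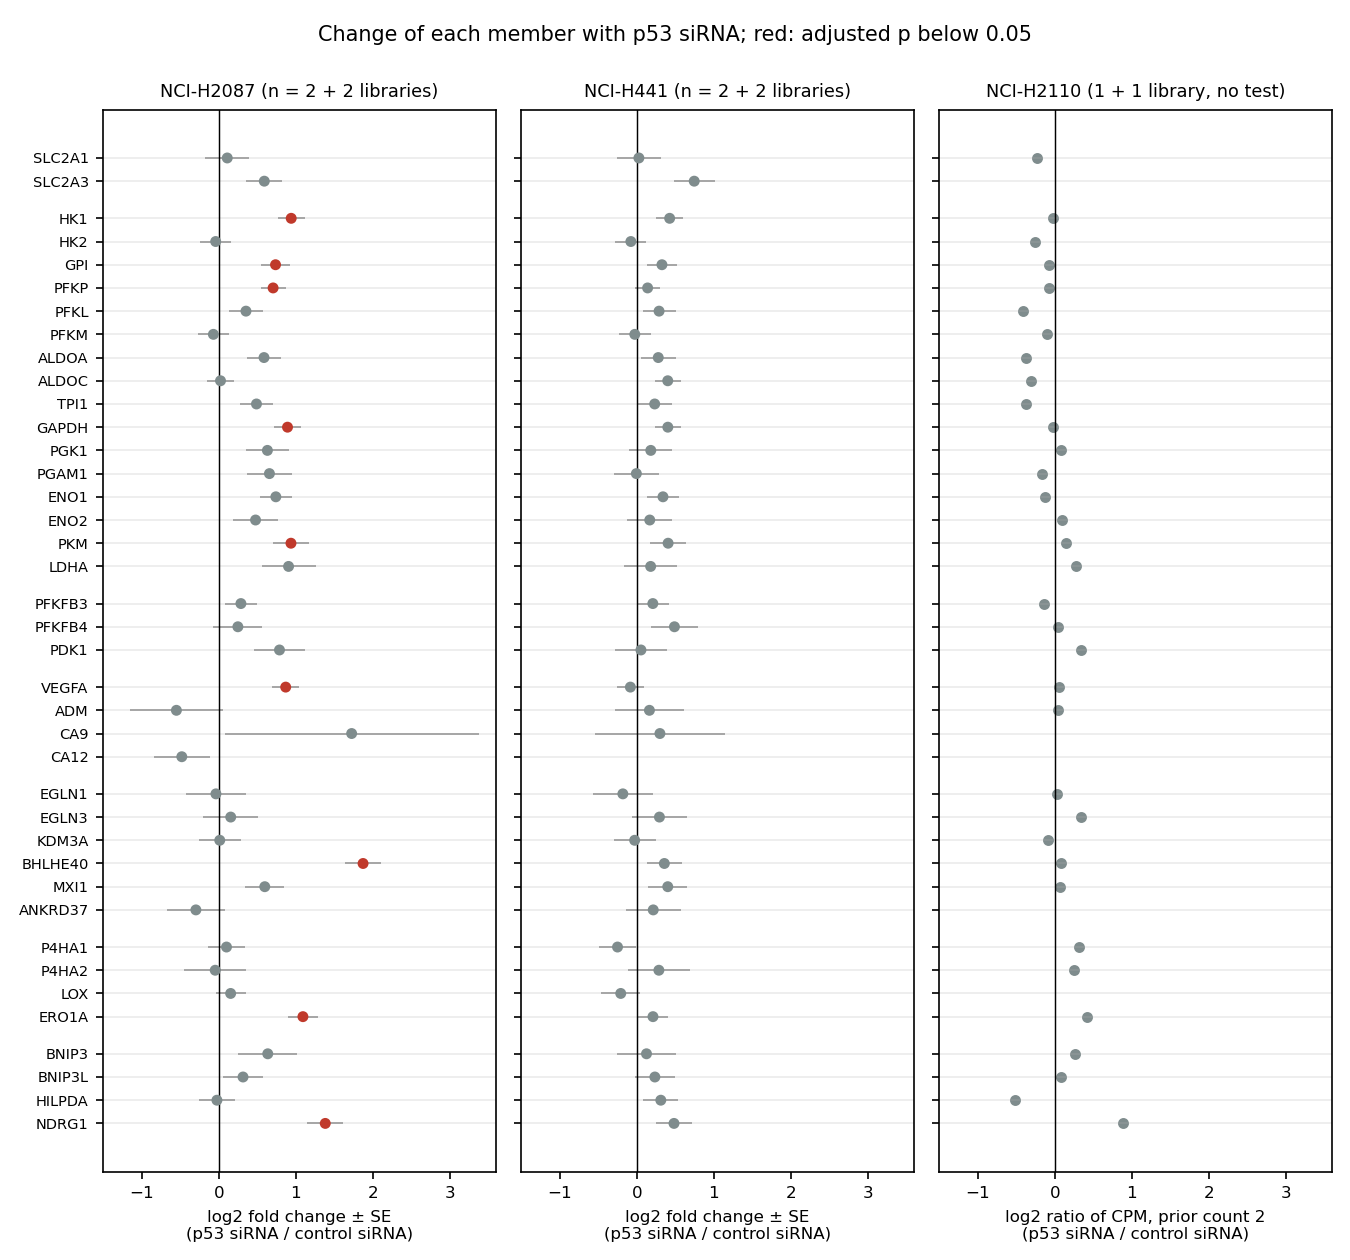
Log2 fold change of each of the 39 genes with p53 siRNA over control siRNA, grouped by role, with standard errors in NCI-H2087 and NCI-H441 (2 libraries per siRNA) and as a ratio of 1 library each in NCI-H2110, where the 34 members with at least 50 counts in either library are drawn. The 9 red points in NCI-H2087 are called higher, with BHLHE40 farthest out at 1.87, and no point is red in NCI-H441, where CA12 is not drawn since it had 0 counts.

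BHLHE40, also known as DEC1, is a basic helix-loop-helix repressor of the circadian clock that hypoxia induces. Its level was 58.2 and 82.1 CPM with p53 siRNA, against 20.2 and 18.1 CPM with control siRNA. Both p53 siRNA libraries lay far above both controls, a log2 fold change of 1.87 ± 0.24 (SE, adjusted p = 0.00255 by edgeR). The call held when any 1 of the 4 NCI-H2087 libraries was left out, with log2 fold changes from 1.60 to 2.10 and adjusted p up to 0.0477. In no other called member did it hold in all 4.

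NDRG1, an N-myc downstream-regulated gene that hypoxia and metal chelation induce, had 182.8 and 150.3 CPM with p53 siRNA, against 70.7 and 57.0 CPM with control siRNA. ERO1A, which reoxidises protein disulphide isomerase in the endoplasmic reticulum, had 249.5 and 186.8 CPM, against 110.1 and 94.4 CPM with control siRNA. In both genes the 2 groups lay apart, with replicate 1 the higher library of each pair. The log2 fold change was 1.38 ± 0.23 for NDRG1 (adjusted p = 0.00821) and 1.09 ± 0.19 for ERO1A (adjusted p = 0.0102, edgeR). NDRG1 lost its call without control replicate 2 (adjusted p = 0.101), and ERO1A lost its call without either control, with an adjusted p of up to 0.12.

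VEGFA, the main growth factor for blood vessels, reached 116.3 and 135.8 CPM with p53 siRNA, against 78.5 and 59.6 CPM with control siRNA. Its groups did not overlap, and the log2 fold change was 0.87 ± 0.18 (adjusted p = 0.0184, edgeR). Without control replicate 2 or p53 siRNA replicate 2 it was not called, with an adjusted p of up to 0.182. The other secreted and surface products were not called: the peptide hormone ADM was at 0.641 and 0.549 CPM, against 1.19 and 0.603 CPM with control siRNA, and the carbonic anhydrase CA12, a pH regulator, at 10.6 and 5.87 CPM, against 13.3 and 9.65 CPM. CA9, the carbonic anhydrase most used as a marker of hypoxic tumour cells, had 4 and 0 counts with p53 siRNA and 1 and 0 with control siRNA, too few for a fold change.

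Of the 16 glycolytic enzymes, 5 were higher and 0 lower without the block, and 11 were higher with it, while the median log2 fold change of the 16 was 0.64. HK1, a hexokinase that phosphorylates glucose, had 210.3 and 182.1 CPM with p53 siRNA, against 108.7 and 95.7 CPM with control siRNA (0.94 ± 0.18 log2, adjusted p = 0.0132, edgeR). The call of HK1 did not hold in all 4 leave-outs, where its log2 fold change ran from 0.83 to 1.05. HK2, the hexokinase that HIF induces in many tumours, had 123 and 88.6 CPM, against 103.6 and 114.3 CPM, and the ranges overlapped.

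At the next steps GPI, which isomerises glucose 6-phosphate, had 703.2 and 491.7 CPM, against 383.6 and 333.3 CPM with control siRNA (0.74 ± 0.19 log2, adjusted p = 0.0456, edgeR). PFKP, the platelet-type phosphofructokinase, had 210.0 and 203.0 CPM, against 138.4 and 114.9 CPM (0.71 ± 0.16, adjusted p = 0.0278). The groups were apart in both genes, but the call of PFKP was lost in each of the 4 leave-outs, and that of GPI in 3 of the 4. When only the NCI-H2087 libraries were fitted, GPI was not called (0.76 log2, adjusted p = 0.0699, edgeR). The liver-type PFKL had 33.0 and 31.5 CPM, against 28.8 and 21.8 CPM, and the muscle-type PFKM had 60.1 and 76.1 CPM, against 62.0 and 81.0 CPM. Neither was called. PFKM shares exon sequence on the opposite strand with SENP1, and whether counting used strand is not stated.

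In the later steps of the pathway GAPDH, which makes NADH, reached 5690 and 4536 CPM with p53 siRNA, against 2873 and 2635 CPM with control siRNA (0.89 ± 0.17 log2, adjusted p = 0.0139, edgeR). PKM, pyruvate kinase, reached 2115 and 1349 CPM, against 993.0 and 815.6 CPM (0.94 ± 0.23, adjusted p = 0.0378). ENO1, the main enolase, had 3909 and 2599 CPM, against 2139 and 1755 CPM, and missed the threshold (0.74 ± 0.21, adjusted p = 0.0553). All 3 had both p53 siRNA libraries above both controls. PKM was called in 1 of the 4 leave-outs and GAPDH in 2. Nor was PKM called when only the NCI-H2087 libraries were fitted (0.96 log2, adjusted p = 0.0593, edgeR).

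LDHA and PGK1 had replicate 1 with p53 siRNA far above replicate 2. LDHA, the lactate dehydrogenase subunit that favours lactate, stood at 3839 and 1593 CPM, against 1774 and 1124 CPM with control siRNA. PGK1, the first enzyme of the pathway to make ATP, stood at 1138 and 586.6 CPM, against 608.2 and 505.4 CPM. Replicate 2 with p53 siRNA fell below control replicate 1 in both genes, so the groups overlapped, and neither passed without the block. With the block LDHA was higher by 0.81 ± 0.15 log2 (adjusted p = 0.000919, edgeR), PGK1 by 0.56 ± 0.16 (0.0162), ENO1 by 0.72 ± 0.13 (0.00108), ALDOA by 0.56 ± 0.13 (0.00599), PGAM1 by 0.58 ± 0.15 (0.0119) and TPI1 by 0.47 ± 0.13 (0.014).

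**Figure D2:**
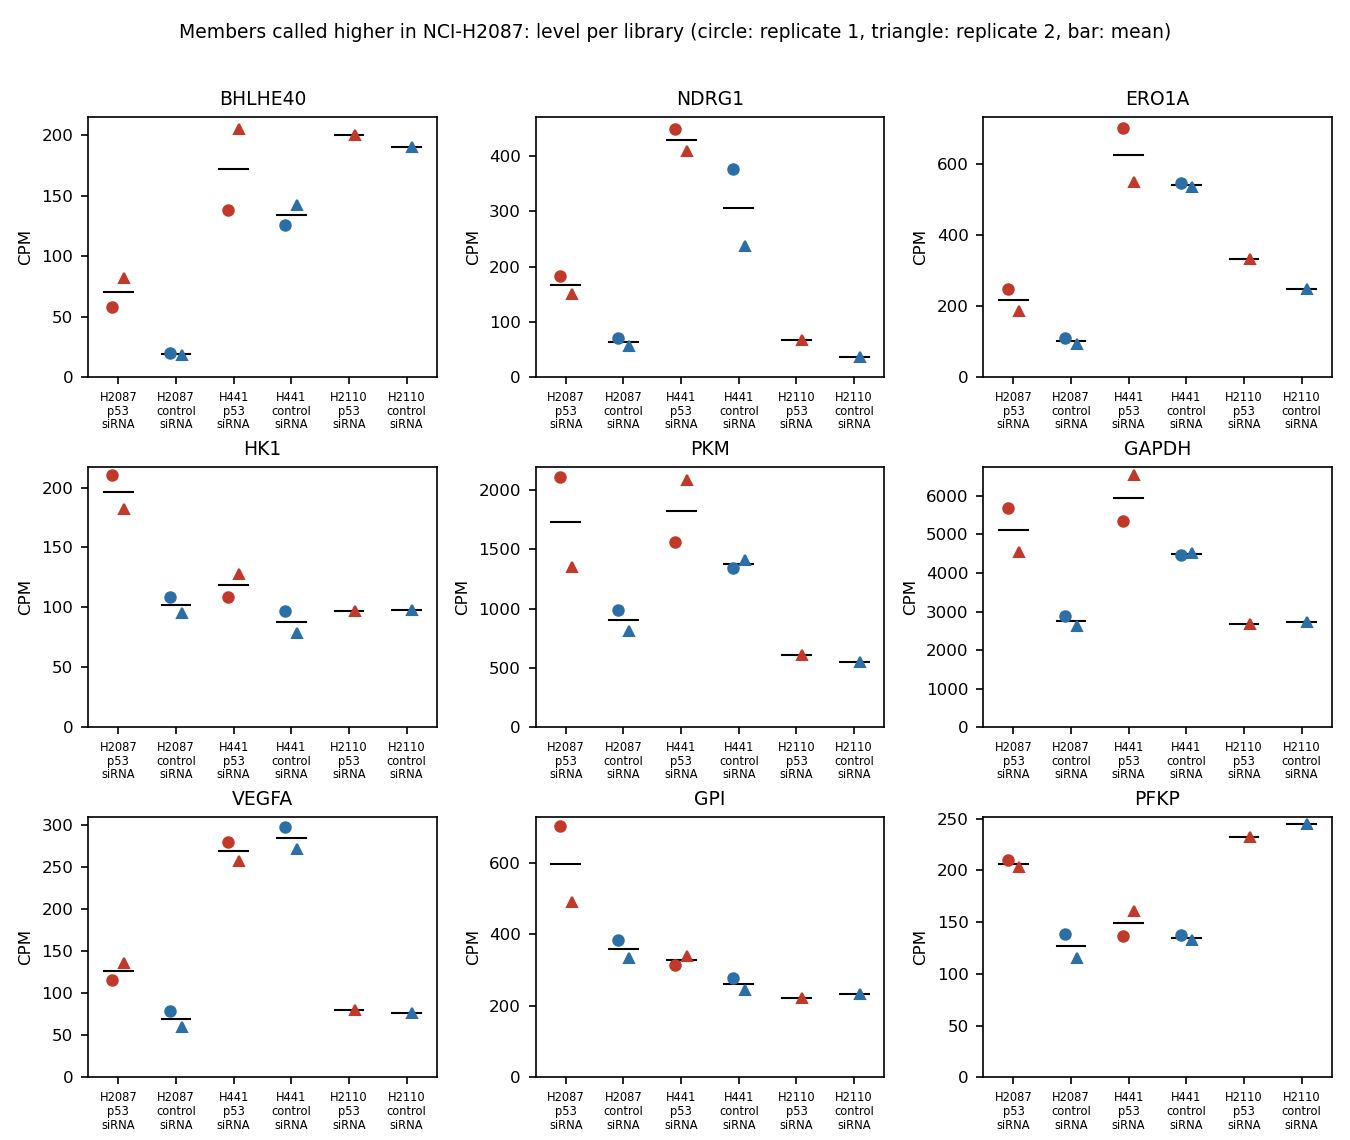
Level in CPM of the 9 members called higher in NCI-H2087, in each of the 10 libraries, with p53 siRNA in red, control siRNA in blue, circles for replicate 1, triangles for replicate 2 and a bar at the mean. In NCI-H2087 both red points lie above both blue points in all 9 panels, and in NCI-H2110 the red and blue points are 67.0 and 36.2 CPM for NDRG1 and nearly level for HK1, GAPDH and VEGFA.

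Outside the enzyme chain, the block added PDK1, a pyruvate dehydrogenase kinase (0.74 ± 0.15 log2, adjusted p = 0.00265, edgeR), and MXI1, a MYC antagonist (0.59 ± 0.14, 0.00652). It also added SLC2A3, the high-affinity glucose transporter GLUT3 (0.59 ± 0.16, 0.0139), and the mitophagy receptor BNIP3 (0.53 ± 0.16, 0.0255). Of the parent and pseudogene counts of SLC2A3 in NCI-H2087, the pseudogenes held up to 22.8%. The HIF prolyl hydroxylases EGLN1 and EGLN3, the histone demethylase KDM3A and ANKRD37, all induced by HIF in other cells, were called in neither fit. EGLN3 stood at 73.8 and 39.4 CPM with p53 siRNA, against 60.7 and 41.0 CPM, and ANKRD37 at 5.13 and 2.54 CPM, against 5.78 and 3.69 CPM. The collagen enzymes P4HA1, P4HA2 and LOX, the glucose transporter SLC2A1 and the bifunctional regulators PFKFB3 and PFKFB4 were also called in neither fit.

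Both p53 siRNA libraries lay above both controls in 14 members (35.9%), against 25.4% of all genes tested, and below both in 0 members, against 30.4% of all genes. Comparing only libraries with the same replicate number, 22 members (56.4%) were higher with p53 siRNA in both pairs, against 33.5% of all genes, and 4 were lower in both (PFKM, ADM, CA12, ANKRD37), against 39.3%. The 39 genes took 2.23% and 1.45% of all counts with p53 siRNA, against 1.37% and 1.11% with control siRNA.

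Scaling by library totals alone shifted the median of all genes in NCI-H2087 to -0.21 log2, with a member median of 0.31. With it 25 members were positive, against 6052 of all 17978 genes. On that scale 6 members were called higher (15.4%), against 3.55% of all genes higher and 7.15% lower. PFKP (adjusted p = 0.0709), PKM (0.0651) and GPI (0.0888) were not called on that scale. Other features moved with the siRNA in this line: nuclear copies of mitochondrial genes, 389 IDs, took 2.48% and 2.25% of counts with p53 siRNA, against 4.85% and 5.51% with control siRNA. The summed level of the 4 epithelial markers ran from 8374 to 8604 CPM, against 3617 to 3966 CPM, and that of the 3 leukocyte markers from 256.6 to 363.0 CPM, against 113.4 to 133.7 CPM. Most of the epithelial sum was KRT18, with 7325 and 7238 CPM, against 3348 and 3077 CPM. Each of the other epithelial markers was also above both controls, EPCAM with 206 and 163 CPM, against 146 and 126 CPM. The leukocyte sum was almost all CD68, a lysosomal protein that many cell types express, with PTPRC and CD3E at 0 in both p53 siRNA libraries. The summed level of the 3 lung lineage markers ran from 195.9 to 267.8 CPM, against 369.4 to 398.1 CPM, and among them SFTPB, a surfactant protein gene, had 1.80 and 0.803 CPM, against 15.1 and 27.8 CPM. Their part in the result was not tested.

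In most of these genes the 2 replicates of NCI-H2087 differed in the same direction in both arms. The exceptions were BHLHE40, VEGFA, HK2, PFKFB3 and HILPDA. Replicate 1 minus replicate 2, in log2(CPM + 1), was -0.49 for BHLHE40 with p53 siRNA and 0.15 with control siRNA. For VEGFA it was -0.22 and 0.39. Replicate 1 was the higher library in 35 of the 39 members with p53 siRNA and in 34 with control siRNA, whereas 48.6% and 46.2% of all genes were higher in replicate 1 of those arms. The median gap, in log2(CPM + 1), was 0.59 with p53 siRNA and 0.28 with control siRNA, against 0 and -0.01 for all genes. In NCI-H441 the corresponding counts were 22 and 30 of 39, with median gaps of 0.09 and 0.13. BNIP3 and LDHA had the widest gaps in NCI-H2087 with p53 siRNA: BNIP3 stood at 238.3 and 97.3 CPM, against 129.6 and 86.4 CPM with control siRNA. The labels name no culture density, date or batch for the replicate numbers.

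**Figure D3:**
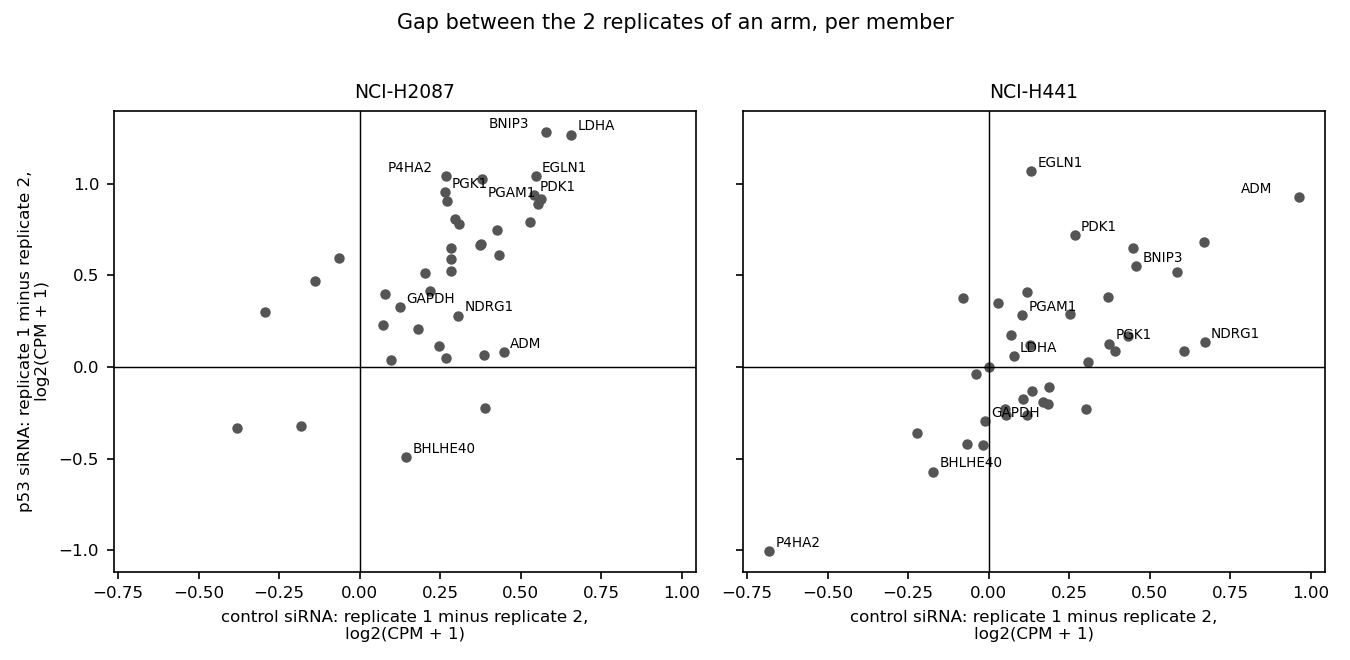
Replicate 1 minus replicate 2 in log2(CPM + 1) for each of the 39 genes, with the p53 siRNA arm on the vertical axis and the control arm on the horizontal axis, for NCI-H2087 and NCI-H441. In NCI-H2087 most points lie above 0 on both axes, with BNIP3 at the top (1.28), while BHLHE40 lies below 0 on the vertical axis (-0.49).

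In NCI-H441 cells none of the 39 genes passed the test with p53 siRNA. The background there is 0 genes of 17978 called higher and 0.00556% called lower, so the test made 1 call over the whole table. The replicate block called 0 members (0.273% of all genes higher, 0.145% lower), as did DESeq2 and limma-voom. Among the members 30 were positive, 8 were negative, and CA12 had 0 counts in all 4 libraries of this line. The median log2 fold change was 0.21 with CA12 entered at 0, against 0.01 for all genes.

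The members with the smallest p in NCI-H441 were SLC2A3, HK1 and GAPDH. SLC2A3 had 4.10 and 2.90 CPM with p53 siRNA, against 2.49 and 1.70 CPM with control siRNA (0.75 ± 0.27 log2, adjusted p = 0.933, edgeR). HK1 had 109.0 and 127.7 CPM, against 97.4 and 78.7 CPM (0.43 ± 0.18, adjusted p = 0.933), and GAPDH had 5338 and 6542 CPM, against 4476 and 4508 CPM (0.40 ± 0.17, adjusted p = 0.933). The p53 siRNA libraries were above both controls in each of the 3 genes, by less than the test can call. That held for 15 members (38.5%), against 17% of all genes, and 1 member, P4HA1, had both p53 siRNA libraries below both controls, also against 17%. In same-numbered pairs 24 members (61.5%) were higher with p53 siRNA in both, against 30.4% of all genes, and 3 were lower in both, against 28.5%. Of the pseudogene and parent counts of SLC2A3 in this line, the pseudogenes held 43.2% to 77.4%, so its value here is uncertain.

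The difference between the 2 lines was the change in NCI-H2087 minus the change in NCI-H441. For it 0 members were called, against 0.239% of all genes higher and 0.172% lower. DESeq2 called 2 members, and its share over all genes is not given here. BHLHE40 changed by 1.87 ± 0.24 log2 in NCI-H2087 and 0.36 ± 0.23 in NCI-H441, a difference of 1.52 ± 0.33 (adjusted p = 0.092, edgeR). VEGFA differed by 0.95 ± 0.25 (adjusted p = 0.158) and ERO1A by 0.88 ± 0.27 (adjusted p = 0.216). With the replicate block 4 members were called, all with the larger change in NCI-H2087, against 4.66% of all genes called in that direction and 4.26% in the other: BHLHE40 (1.52 ± 0.23, adjusted p = 0.00106), ERO1A (0.88 ± 0.19, 0.0104), VEGFA (0.96 ± 0.21, 0.0122) and NDRG1 (0.86 ± 0.21, 0.0177). In neither fit was the difference called for a glycolytic enzyme.

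The change common to the 3 lines, from an additive model of line and siRNA, called 0 members. Of all genes, 0.339% were called higher and 0.0556% lower. NDRG1 came closest at 0.92 ± 0.18 log2 (adjusted p = 0.0572, edgeR), followed by SLC2A3 at 0.72 ± 0.17 (0.103) and HK1 at 0.54 ± 0.15 (0.145). The SLC2A3 value is uncertain. Its pseudogenes held 43.2% to 77.4% of the combined counts in NCI-H441 and 91.0% and 92.7% in NCI-H2110, where SLC2A3 itself had 24 and 11 counts. With pseudogene counts added its change was 0.85 ± 0.22 (adjusted p = 0.114, edgeR). NDRG1 was higher with p53 siRNA in 5 of 5 libraries than in the control of the same line and number. In NCI-H441 its 2 treated libraries had 449.2 and 408.0 CPM, against 377.0 and 236.3 CPM with control siRNA. With the block it was called (0.94 ± 0.17, adjusted p = 0.0446), with 0.328% of all genes called higher and 0.0667% lower. DESeq2 called 7 members, and an edgeR fit with no filter on low counts called 8. The shares of all genes called by those 2 fits are not given here.

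In NCI-H2110, with 1 library per siRNA, 34 members had at least 50 counts in either library, and 0 of them differed 2-fold in either direction, against 0.912% of 12385 genes at least 2-fold higher and 0.573% at least 2-fold lower. The median log2 ratio was 0.04, against -0.02 for all genes measured, with 18 members positive and 16 negative. NDRG1 had the largest ratio, 0.89, with 67.0 CPM with p53 siRNA, against 36.2 CPM. The others of the 4 largest were the lipid droplet protein HILPDA (-0.52; 4.42 against 6.38 CPM), ERO1A (0.42; 334.1 against 249.0 CPM) and PFKL (-0.42; 8.75 against 11.7 CPM). GAPDH stood at 2682 CPM, against 2734 CPM, and BHLHE40 at 200.3 CPM, against 190.0 CPM. These values have no test.

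The 2 hexokinases and the other isoenzyme families were compared per kilobase of exon, a scale that assumes reads along the whole transcript, which the labels do not state for this library kit. HK1 held 68.5% and 72.3% of the HK1 and HK2 level with p53 siRNA in NCI-H2087, against 57.2% and 51.6% with control siRNA. In NCI-H441 it held 51.5% and 56.9%, against 44.9% and 46.5%, and in NCI-H2110 75.5%, against 72.3%. The p53 siRNA libraries had the higher HK1 share in all 3 lines, with no overlap where there were replicates; the shares were not tested.

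PFKM held 15.9% and 19.8% of the phosphofructokinase level in NCI-H2087 with p53 siRNA, against 21.9% and 31.0% with control siRNA, and 7.47% to 10.4% in the libraries of the other lines. PFKP was the main form in every library, from 55.6% to 88.3%. Over the 10 libraries ENO1 held 99.1% to 99.4% of the enolase level, with the rest in ENO2, the neuronal form, and ALDOA held 92.6% to 97.6% beside ALDOC, the brain form. GAPDH was the highest member per kilobase in the controls of all 3 lines, at 1292 and 1185 CPM per kb in NCI-H2087, at 2013 and 2027 CPM per kb in NCI-H441, and at 1229 CPM per kb in NCI-H2110.

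**Figure D4:**
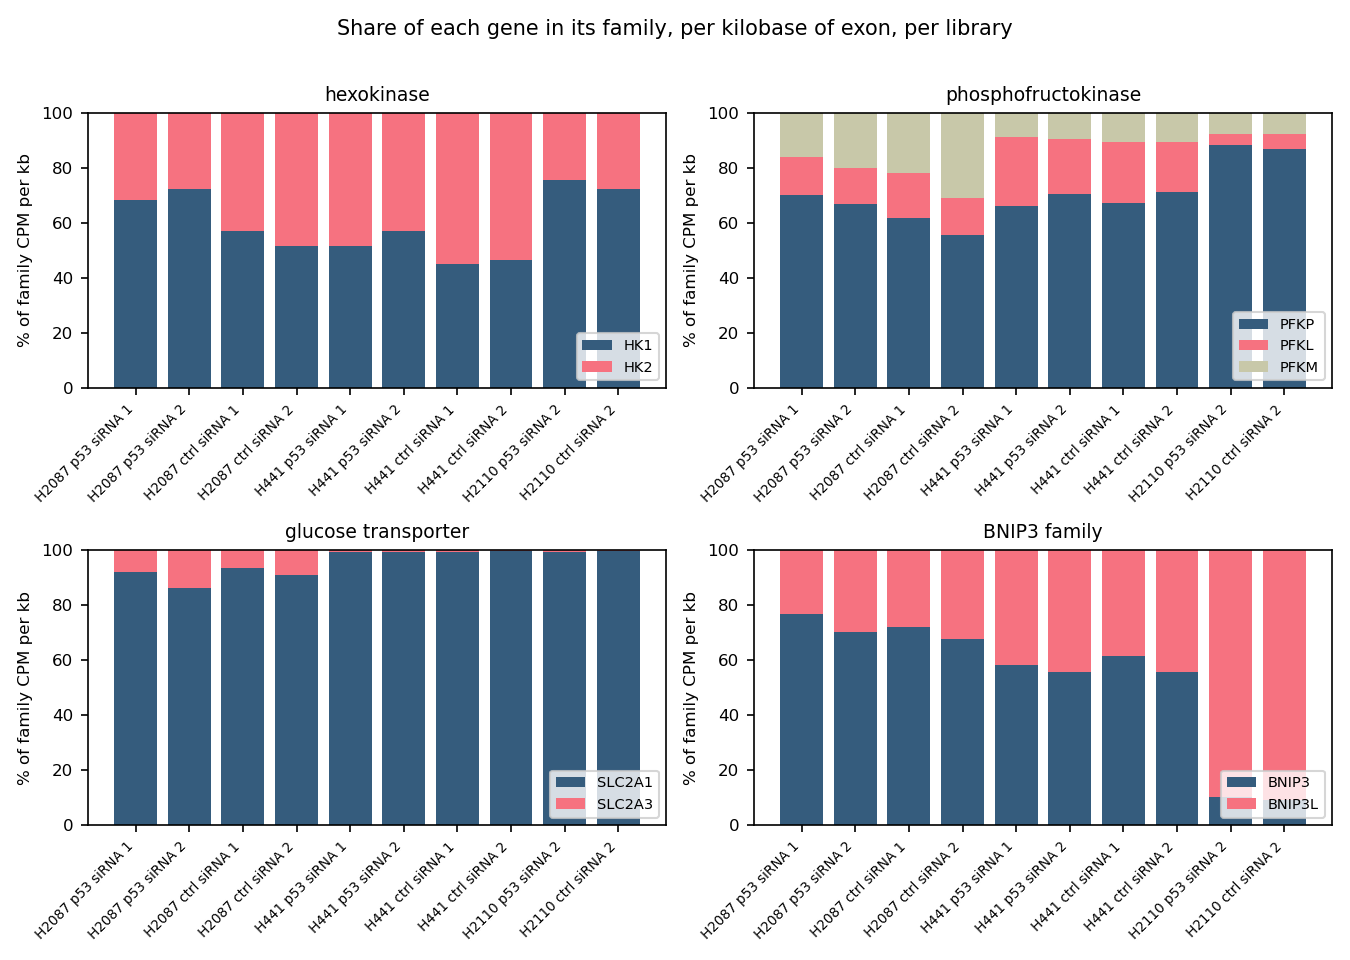
Share of each gene in the summed CPM per kilobase of its family, in percent, in each library, for hexokinases, phosphofructokinases, glucose transporters and the BNIP3 pair. HK1 holds a larger share with p53 siRNA in each line, and BNIP3 falls to 10.3% and 9.10% of its pair in the NCI-H2110 libraries.

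Between lines, in control siRNA libraries, more members were called than between siRNAs within a line. NCI-H2087 minus NCI-H441 gave 5 members higher (12.8%) and 15 lower (38.5%), against 22% and 20.1% of all genes, and the median log2 difference was -0.60, against 0.02. NCI-H2110 minus NCI-H441 gave 2 higher (5.13%) and 23 lower (59%), against 22.6% and 21.9% of all genes, with a median of -1.31, against 0. NCI-H2110 minus NCI-H2087 gave 5 higher and 13 lower (33.3%), against 22.9% and 23.6%, with a median of -0.61, against -0.01. These comparisons share their control libraries, and NCI-H2110 enters with 1 library that is assumed to vary like the others. The medians do not move when CA12, at 0 in NCI-H441, is set to its bound.

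LOX, which crosslinks collagen, had 240.6 and 227.6 CPM in NCI-H2087 controls, against 2.75 and 2.15 CPM in NCI-H441 controls, a log2 difference of 6.58 ± 0.26 (adjusted p = 5.87e-07, edgeR). In the NCI-H2110 control LOX had 3 counts, so that its ratio to NCI-H2087 was 0.000504 (95% exact Poisson interval of the 3 counts, 0.000104 to 0.00147, counting error only). CA12 had 13.3 and 9.65 CPM in NCI-H2087 controls, against 0 counts in both NCI-H441 controls, at least 89.1-fold higher at a limit of 3 counts per library. With 9 counts in the NCI-H2110 control it was at least 2.75-fold higher than in NCI-H441 at the same limit.

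SLC2A3 had 25.0 and 23.3 CPM in NCI-H2087 controls, against 2.49 and 1.70 CPM in NCI-H441 (3.53 ± 0.27 log2, adjusted p = 1.03e-05, edgeR) and 0.433 CPM in NCI-H2110. With pseudogene counts added the log2 difference to NCI-H441 was 2.51 (adjusted p = 0.000469). The other 5 of the 8 largest differences were lower in NCI-H2087. BHLHE40 had 20.2 and 18.1 CPM in NCI-H2087, against 125.9 and 142.1 CPM in NCI-H441 (-2.81 ± 0.25, adjusted p = 2.25e-05), and its level with p53 siRNA in NCI-H2087 was also below every library of the other lines. ERO1A had 110.1 and 94.4 CPM, against 547.6 and 536.4 CPM (-2.41 ± 0.20, adjusted p = 1.75e-05), and PFKFB3, which makes the activator of phosphofructokinase, had 20.5 and 21.4 CPM, against 130.9 and 116.4 CPM (-2.56 ± 0.22, adjusted p = 2.08e-05).

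ADM had 1.19 and 0.603 CPM in NCI-H2087 controls, against 10.9 and 5.10 CPM in NCI-H441 (-3.18 ± 0.53 log2, adjusted p = 0.00108, edgeR). CA9 had 1 and 0 counts, against 11 and 8 counts, and its call (adjusted p = 0.0424) was lost in every leave-out. Also lower in NCI-H2087 were NDRG1 (-2.26), VEGFA (-2.04), PGK1 (-1.84), ALDOC (-1.81), ANKRD37 (-1.46), PFKFB4 (-1.45), ALDOA (-1.14), KDM3A (-0.85), BNIP3L (-0.73) and GAPDH (-0.71), while PFKM (1.49) and P4HA2 (1.14) were higher. Of these, KDM3A, BNIP3L, P4HA2, ANKRD37, PFKFB4 and GAPDH lost their call without at least 1 library. Without control replicate 2 of NCI-H2087, 13 of the 20 calls were made.

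NCI-H2110 stood apart in BNIP3, an outer-membrane receptor for mitophagy. Its control library had 2.52 CPM, against 125.8 and 91.3 CPM in NCI-H441 (-5.43 ± 0.66 log2, adjusted p = 0.00015, edgeR) and 129.6 and 86.4 CPM in NCI-H2087 (-5.42 ± 0.66, adjusted p = 0.000154). Its paralog BNIP3L showed a smaller difference, with 34.2 CPM in NCI-H2110, against 107.1 and 98.6 CPM in the NCI-H441 controls (-1.59 ± 0.35, adjusted p = 0.0047). Against NCI-H2087, with 68.4 and 55.5 CPM, it was not called (-0.86 ± 0.34, adjusted p = 0.0602). BNIP3 has 42 named pseudogenes, which held 10.2% to 38.0% of the combined counts, and the direction was the same with their counts added.

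The next largest differences in NCI-H2110 against NCI-H441 were LOX (-4.31), ANKRD37 (-3.27 ± 0.55; 1.34 against 15.9 and 10.1 CPM), NDRG1 (-3.08 ± 0.33; 36.2 against 377.0 and 236.3 CPM), PFKFB4 (-2.30), ALDOC (-2.27), SLC2A3 (-2.25) and PGK1 (-2.08 ± 0.38; 471.8 against 2257 and 1742 CPM). Of the 16 glycolytic enzymes 9 were lower and 1 higher, PFKP (0.86 ± 0.19; 244.6 against 137.3 and 132.7 CPM). The SLC2A3 value is uncertain, since its 3 pseudogenes held 92.7% of the combined counts in this library, and with them added the log2 difference was 0.30 (adjusted p = 0.611).

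Also lower were EGLN3 (-2.06), VEGFA (-1.88), ALDOA (-1.57), PFKFB3 (-1.52), HK2 (-1.48), HILPDA (-1.47), PFKL (-1.41), ENO2 (-1.40), SLC2A1 (-1.36), PKM (-1.31), ENO1 (-1.20), ERO1A (-1.12), KDM3A (-1.10) and GAPDH (-0.72), and CA12 was higher. GAPDH lost its call without either NCI-H441 control, and KDM3A without replicate 1.

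Against NCI-H2087, the NCI-H2110 control was higher in BHLHE40 (3.31 ± 0.27 log2; 190.0 against 20.2 and 18.1 CPM), ADM (2.00 ± 0.60; 3.50 against 1.19 and 0.603 CPM), ERO1A (1.28 ± 0.23), PFKFB3 (1.04 ± 0.25) and PFKP (0.95 ± 0.19). It was lower in SLC2A3 (-5.78), CA12 (-5.00), ANKRD37 (-1.81), EGLN3 (-1.62), PFKM (-1.42), HK2 (-1.19), P4HA1 (-1.14), PFKL (-1.11), HILPDA (-1.06), NDRG1 (-0.82) and ENO1 (-0.82), beside LOX and BNIP3. The SLC2A3 value is uncertain here too: with pseudogene counts added the log2 difference was -2.21 (adjusted p = 0.0037, edgeR). NDRG1 lost its call without either NCI-H2087 control (adjusted p up to 0.146). ANKRD37, EGLN3, P4HA1 and ENO1 lost theirs without replicate 1 of those controls, and HILPDA and ADM without replicate 2. In limma-voom ADM and NDRG1 were not called, nor was ENO1 when only the libraries of the lines compared were fitted. The order of the lines differed between genes: BHLHE40 and ERO1A were lowest in NCI-H2087, BNIP3 and ANKRD37 in NCI-H2110.

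**Figure D5:**
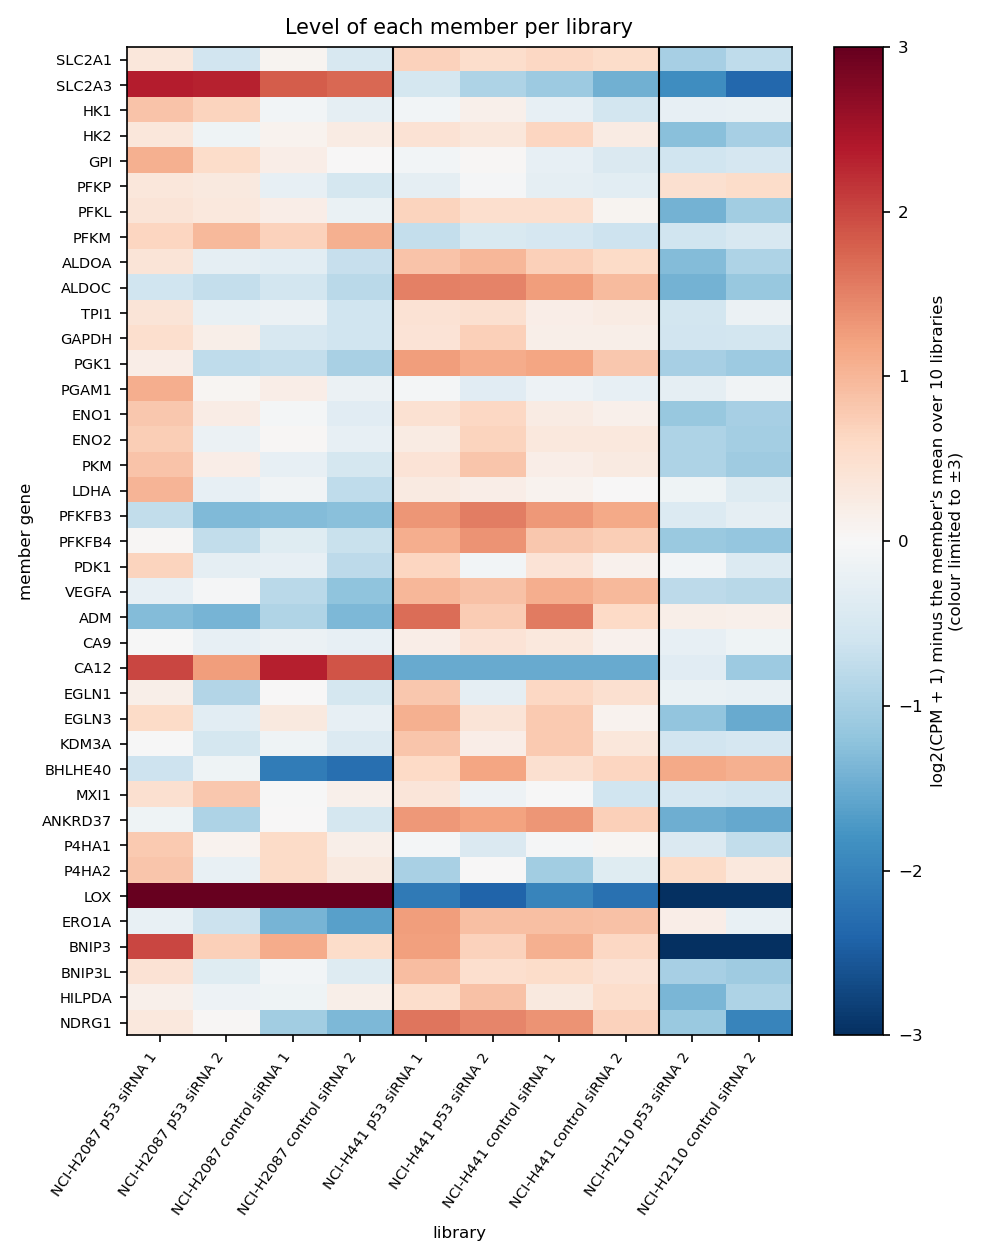
Level of each of the 39 genes in each library, as log2(CPM + 1) minus the gene's mean over the 10 libraries, with colour limited to 3 in either direction and p53 siRNA left of control siRNA within a line. The 3 lines form blocks, with LOX, SLC2A3 and CA12 high in NCI-H2087 and BNIP3 and LOX low in NCI-H2110, and columns within a line differ less.

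Other genes of the pathway were read from 6 lists with 94 entries, 93 of them in the table. Their counts in NCI-H2087 are to be read against the 4.98% of all genes tested that were called higher and the 3.69% called lower. Among the HIF subunits and their hydroxylation machinery, 1 of 12 tested was higher in NCI-H2087 and 0 lower: HIF1A, the oxygen-regulated subunit, had 2089 and 1952 CPM with p53 siRNA, against 1171 and 1244 CPM with control siRNA (0.74 ± 0.15 log2, adjusted p = 0.0152, edgeR). HIF1A RNA in NCI-H441 was 1279 and 1211 CPM, against 1237 and 1384 CPM. HIF protein, which oxygen controls, was not measured here. None of the 9 tested isoenzymes outside the 39 was called.

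Of 17 genes of lactate and pyruvate handling, 2 were higher and 1 lower in NCI-H2087. PDHX, a subunit of the pyruvate dehydrogenase complex, had 31.9 and 33.2 CPM with p53 siRNA, against 10.2 and 9.61 CPM (1.72 ± 0.21 log2, adjusted p = 0.00237, edgeR). The lactate exporter SLC16A3 was higher by 0.83 ± 0.22 (adjusted p = 0.0475), and the pyruvate dehydrogenase kinase PDK2 fell by 1.02 on the log2 scale (adjusted p = 0.0107). PDHX was also called in the change common to the lines (1.19 ± 0.18, adjusted p = 0.0223), and had 17.3 and 22.0 CPM in NCI-H441, against 9.31 and 11.5 CPM, and 27.0 CPM in NCI-H2110, against 16.7 CPM.

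Of 13 pentose phosphate and glycogen enzymes 3 were higher and 0 lower, all on the glycogen side: the phosphorylases PYGB (1.35 ± 0.27 log2, adjusted p = 0.0156) and PYGL (0.71 ± 0.18, adjusted p = 0.0379) and the branching enzyme GBE1 (0.82 ± 0.19, adjusted p = 0.0278, edgeR). Of 4 gluconeogenic genes tested, FBP1, which opposes phosphofructokinase, was lower (-1.05 ± 0.22, adjusted p = 0.0192), with 31.3 and 28.2 CPM, against 56.0 and 66.8 CPM. Of 27 other reported hypoxia-induced genes 3 were higher and 0 lower. They were ERRFI1, a feedback inhibitor of EGFR (2.30 ± 0.28, adjusted p = 0.00237), STC1, a secreted glycoprotein (1.78 ± 0.35, adjusted p = 0.0159), and DDIT4, an inhibitor of mTORC1 (2.26 ± 0.59, adjusted p = 0.0443). With the block, which called 12.8% of all genes higher and 12.6% lower, the counts, higher and lower, were 1 and 1 for the HIF machinery, 2 and 0 for the isoenzymes, 5 and 2 for lactate and pyruvate, 4 and 0 for pentose phosphate and glycogen, 0 and 2 for gluconeogenesis and 7 and 3 for the other hypoxia-induced genes.

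In NCI-H441 no gene of the 6 lists was called without the block, and 1 of the lactate and pyruvate list was higher with it. Between control libraries the lists differed widely. The lactate transporter SLC16A1 was higher in NCI-H2087 than in NCI-H441 (5.75 ± 0.25 log2, adjusted p = 8.59e-07, edgeR), and SLC16A3 was lower (-2.25 ± 0.22, adjusted p = 4.88e-05). In NCI-H2110 against NCI-H441 the HIF partner ARNT2 (7.90 ± 0.42) and the pentose phosphate enzyme PGD (3.24 ± 0.24) were higher and HIF1A was lower (-1.67 ± 0.19). The HIF subunit genes EPAS1 (1.38 ± 0.23) and ARNT (0.95 ± 0.20) went the other way from HIF1A and were higher. EPAS1 had 453.2 CPM in the NCI-H2110 control, against 163.0 and 185.9 CPM in the NCI-H441 controls. Of the 27 other hypoxia-induced genes, 2 were higher and 9 lower in NCI-H2087 against NCI-H441, while 22% of all genes tested were higher and 20.1% lower. In NCI-H2110 against NCI-H441, 5 were higher and 11 lower, while 22.6% of all genes were higher and 21.9% lower.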

How the data were processed

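The authors deposited 1 table of whole-number counts per gene; per the submitters' processing notes Bowtie2, RSEM 1.2.12 and hg19 were used, in roles not given, and whether the counts are rounded RSEM estimates is not stated. From these counts edgeR 4.0.16 (R 4.3.3) was run on 17978 genes kept by filterByExpr (99.96% of counts), with TMM scaling, 1 mean for each of the 6 groups over all 10 libraries, or an additive model for the common change. The common biological coefficient of variation was 19.8%. Tests were two-sided. NCI-H2110 ratios used a prior count of 2. Replicate numbers were treated as a pairing in the blocked fit because the gap between replicates correlated between arms (r = 0.534 in NCI-H2087 and 0.595 in NCI-H441, over 9332 genes, which are not independent); no label gives a source of the pairing. Symbols came from a names table (51959 IDs), lengths from GENCODE 29 and promoters from RefSeq. Alternatives were DESeq2 1.42.0, limma-voom (limma 3.58.1), other scalings, no filter, added pseudogene counts and leaving out libraries; scripts were tested on simulated data. The members, lists and tests were chosen with earlier results of these data known. Named were all called members, or the 3 with the smallest p where fewer were called; between control groups all called, with the 8 largest of NCI-H2087 against NCI-H441 in full; up to 4 per list. The level of the targeted gene is not reported here.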

Additional observations from a re-analysis of the deposited data

Results flagged for a closer look

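For 4 members the change with p53 siRNA differed between NCI-H2087 and NCI-H441 in a direct test of the difference with the replicate block (edgeR, adjusted over all genes). The change in NCI-H2087 exceeded that in NCI-H441 by 1.52 log2 for BHLHE40, 0.96 for VEGFA, 0.88 for ERO1A and 0.86 for NDRG1. The same fit called 4.66% of all genes in that direction and 4.26% in the other. Without the block none of the 4 passed (adjusted p from 0.092 for BHLHE40 to 0.283 for NDRG1, edgeR). The pairing came from these same data, and the blocked fit left 2 residual degrees of freedom, against 4 without the block. In NCI-H2087 the replicate gaps of BHLHE40 and VEGFA ran in opposite directions in the 2 arms.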

How the results depend on the processing

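In NCI-H2087 the 9 members called became 16 with no filter on low counts and 19 with the replicate block. For the calls with no filter, and for those by DESeq2 below, the share of all genes called is not given here. Leaving out 1 library gave 1 to 12: 3 without control replicate 1, 1 without control replicate 2, 5 without p53 siRNA replicate 1 and 12 without p53 siRNA replicate 2. For the difference between lines, 0 became 4 with no filter, 2 with DESeq2 and 4 with the replicate block, and 0 in every leave-out. For the common change, 0 became 8 with no filter, 7 with DESeq2 and 1 with the block, and 0 to 1 in leave-outs. Between control groups, leave-outs gave 13 to 17 calls in place of 20 for NCI-H2087 minus NCI-H441, 23 to 24 in place of 25 for NCI-H2110 minus NCI-H441, and 13 to 15 in place of 18 for NCI-H2110 minus NCI-H2087. NCI-H441 gave 0 calls and NCI-H2110 0 ratios past 2-fold under every alternative run. Added pseudogene counts reversed SLC2A3 in NCI-H2110 minus NCI-H441, to 0.30. The causes were not tested. Of the other values of single genes under an alternative, 769 kept direction and call, 63 lost the call and 17 gained it. The block was not applied between lines, since the numbers were read as pairs within a line, and it changed no call of a member in NCI-H441. With 2 libraries per arm, changes smaller than those called may go unseen.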
